A study of Homo sapiens with 4 samples.

Results

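The NRF2 antioxidant response was followed through 9 genes in RNA-seq of cells labelled HepG2, a line established from a human liver tumor, with and without ZCCHC4. The 9 genes were chosen by name: NFE2L2, which encodes NRF2, its inhibitor KEAP1, and the response genes HMOX1, NQO1, GCLC, GCLM, TXNRD1, SRXN1 and GPX4. All 9 were found among the 16658 genes of the table, and all 9 reached the level needed for testing. WT cells (wildtype genotype, untreated) and ZCCHC4 KO1 cells (ZCCHC4 knockout by CRISPR/Cas9, untreated) were compared, with 2 libraries per group, and ZCCHC4 KO1 is a single knockout line. Values are FPKM, fragment counts scaled to transcript length and to the mapped total, so levels can be compared between genes.

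NRF2 is a transcription factor that KEAP1 holds for destruction by the CUL3 ubiquitin ligase. Electrophiles and oxidants modify KEAP1, NRF2 then accumulates in the nucleus, pairs with a small MAF protein and binds antioxidant response elements, while BACH1 competes for such elements as a repressor, above all at HMOX1. The response supplies glutathione, thioredoxin, NADPH and quinone-reducing enzymes, and hepatocytes and liver tumors are known for its strong use in drug and metal detoxification.

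The targeted gene was checked first. ZCCHC4 was at 7.22 and 5.44 FPKM in WT cells and at 1.08 and 2.29 in ZCCHC4 KO1 cells, and passed the test as lower (log2 fold change -1.48, standard error (SE) 0.287, adjusted p = 0.0448 from limma). That call was lost without ZCCHC4 KO1 replicate 1 (adjusted p = 0.0514 from limma) and also when the pseudocount was 0.1 (0.0551) or no filter on low values was used (0.115). Defining hepatocyte genes were nearly absent: of 15 such markers, 9 were analysed here, and their highest value in any library was 0.72 FPKM. For these 9 markers, the label HepG2 was thus not matched by liver gene expression in either group. The other 6, ALB, APOA1, APOB, APOH, TTR and TF, were not analysed. The summed FPKM of the 9 markers was 0.55 and 0.63 in WT cells and 0.85 and 0.87 in ZCCHC4 KO1 cells. Libraries of the same group also differed along transcript GC content. The rank correlation (Spearman) of GC content with replicate 2 minus replicate 1, taken over 10559 genes as a description, was 0.706 in WT cells and -0.764 in ZCCHC4 KO1 cells. NRF2 response genes followed the same split. In 4 of them, NFE2L2, GCLC, GCLM and TXNRD1, WT replicate 1 exceeded WT replicate 2 and ZCCHC4 KO1 replicate 2 exceeded replicate 1, and their transcripts held 37.3 to 44.6 percent GC. In the other 5, at 44.2 to 62.5 percent GC, both orders were the opposite.

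Of the 9 genes, HMOX1 alone passed the test. It rose 3.13-fold in ZCCHC4 KO1 cells, while NFE2L2, KEAP1 and the other 6 response genes did not pass an adjusted p of 0.05. Genes were called at an adjusted p below 0.05 from limma on log2(FPKM + 1), with Benjamini-Hochberg adjustment over 10726 genes. The share called was 5.98 percent in either direction, 1.5 percent higher and 4.48 percent lower. By this measure 1 of 9 members was higher and 0 were lower. An unadjusted p under 0.05 from limma was reached by 3 of 9 members (HMOX1, GPX4 and KEAP1), beside 2455 of 10726 tested genes. The study's stricter thresholds were an adjusted p below 0.001 together with a 2-fold change. With limma at these thresholds, 0.0746 percent of the genes were called (0.0186 percent higher, 0.0559 percent lower), and 0 members were among them. The study reports far more genes at these thresholds by its own test, and its text does not state whether HMOX1 was among them. Past 2-fold in mean FPKM without a test were 2.07 percent of genes upward and 5.93 percent downward, against 1 and 0 of the members. Both ZCCHC4 KO1 libraries lay above both WT libraries for 6 of 9 members, and below them for 0, where 23.1 percent of all tested genes lay above and 28.5 percent below, 51.6 percent in all. The median log2 fold change of the members was 0.31, against -0.03 over all tested genes.

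**Figure D1:**
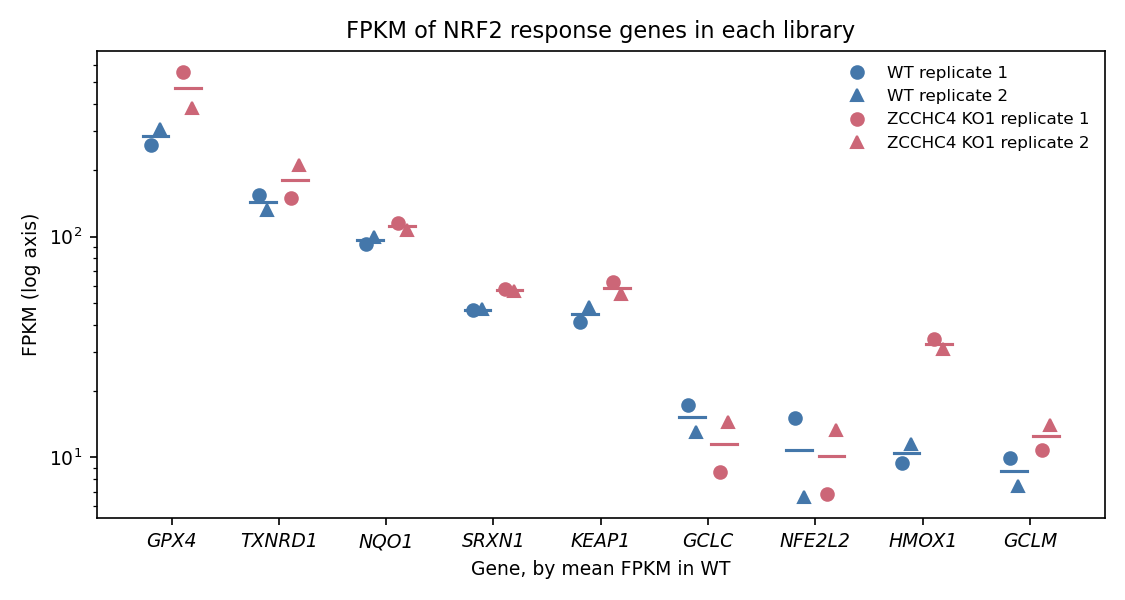
FPKM (log axis) of each of the 9 genes in each library, ordered by mean FPKM in WT cells; circles are replicate 1, triangles replicate 2, and lines the mean of 2 libraries. HMOX1 stands at 9.41 and 11.53 in WT cells and at 34.50 and 31.08 in ZCCHC4 KO1 cells, whereas the points of GCLC, NFE2L2 and TXNRD1 overlap between the groups.

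The levels spanned a wide range in WT cells. GPX4, TXNRD1 and NQO1 had the highest mean FPKM, at 285, 144 and 96.4, followed by SRXN1 at 46.8 and KEAP1 at 44.5. These 2 neighbours in the order did not differ beyond their spread, since the WT libraries of KEAP1, at 40.94 and 48.06, enclosed those of SRXN1, at 46.46 and 47.05. GCLC, NFE2L2, HMOX1 and GCLM were the lowest, at 15.2, 10.9, 10.5 and 8.71, and apart from GCLC and HMOX1 or GCLM their libraries overlapped. In ZCCHC4 KO1 cells HMOX1 stood at 32.8, above GCLM (12.5), GCLC (11.5) and NFE2L2 (10.1), each of whose libraries lay below both HMOX1 libraries.

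Among the regulators, NFE2L2 (chromosome 2, 177230303 to 177264727 in GRCh38.p14) was at 15.05 and 6.65 FPKM in WT cells and at 6.86 and 13.38 in ZCCHC4 KO1 cells. The groups overlapped fully, and the difference within each group was larger than that between the groups. Its log2 fold change was -0.06 (95% interval -1.15 to 1.03, adjusted p = 0.96 from limma), and a change in either direction within that interval was not detectable with these libraries. The sign turned positive under 3 of the other scalings (median ratio, quantile and GC removal) and also without WT replicate 1 (0.47) or ZCCHC4 KO1 replicate 1 (0.38).

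KEAP1 (chromosome 19, 10486125 to 10503356), the adaptor that presents NRF2 to the ligase, was at 40.94 and 48.06 FPKM in WT cells and at 62.26 and 55.17 in ZCCHC4 KO1 cells. Both ZCCHC4 KO1 libraries were higher, by a log2 fold change of 0.39 (95% interval 0.02 to 0.76, adjusted p = 0.195 from limma). Of all 10726 tested genes, 5018 had a positive log2 fold change and 5708 a negative one. Of the 20 nearest tested genes on chromosome 19, 15 had a positive one, with a median of 0.27. With the GC trend removed the value for KEAP1 was also 0.27. The part of these in the value for KEAP1 was not tested.

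A list of 16 regulators, which holds NFE2L2 and KEAP1, had 0 genes called higher and 0 lower by limma. Over all tested genes, 1.5 percent were called higher and 4.48 percent lower. The median log2 fold change of the list was 0.00, and 4 of its genes had an unadjusted p under 0.05, beside 2455 of 10726 tested genes. BACH1, the repressor of HMOX1, was at 3.29 and 1.55 FPKM in WT cells and at 0.69 and 1.18 in ZCCHC4 KO1 cells. These libraries did not overlap, but the log2 fold change of -0.79 (SE 0.3) did not pass (adjusted p = 0.197 from limma). With the GC trend removed BACH1 had an adjusted p of 0.0322 from limma. That setting called 776 higher and 1342 lower of 10559 genes. BACH1 was singled out after its values had been seen.

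The letters of the antioxidant response element, TGACNNNGC, were looked for near the start sites on both strands in RefSeq sequence (GRCh38.p14), to show where NRF2 response genes carry them. From 250 bases before to 50 after the start, matched for 8 of the 9 genes (not HMOX1), GCLM and TXNRD1 held the letters, as did 13.6 percent of 27305 promoters. The single sequence TGACTCAGC, one case of those letters, was absent from these windows in all 8 genes and present in 0.564 percent of promoters. From 10000 bases before to 50 after the start, GCLC, GPX4 and NQO1 held TGACTCAGC, as did 12.7 percent of genes, while the looser letters were in all 8 and in 96.1 percent of genes. Of the matches, 6 are given below with 8 bases on either side, read along the strand of the match, with the matched letters in capitals.
NQO1, chr16:69727007-69727015, minus strand, 455 bases before the start: agtcacagTGACTCAGCagaatctg
GCLC, chr6:53548249-53548257, plus strand, 3156 bases before the start: cctccccgTGACTCAGCgctttgtg
GPX4, chr19:1099644-1099652, plus strand, 4350 bases before the start: tcaccataTGACTCAGCaattccac
GCLM, chr1:93909456-93909464, plus strand, 34 bases before the start: gaagacaaTGACTAAGCagaaatcg
TXNRD1, chr12:104215680-104215688, plus strand, 99 bases before the start: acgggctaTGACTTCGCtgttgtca
TXNRD1, chr12:104215771-104215779, minus strand, 8 bases before the start: gtgggaacTGACGGAGCcgaaggac
None of the genes shown here passed the test between ZCCHC4 KO1 and WT cells. A match is a description of the letters, and binding was not measured.

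HMOX1 (chromosome 22, 35381096 to 35394207) encodes heme oxygenase 1, the inducible enzyme that opens the heme ring and releases iron, carbon monoxide and biliverdin. It was at 9.41 and 11.53 FPKM in WT cells and at 34.50 and 31.08 in ZCCHC4 KO1 cells. The groups were far apart, with means of 10.5 ± 1.5 (SD, n = 2) and 32.8 ± 2.42 (SD, n = 2). The log2 fold change was 1.56 (SE 0.172, 95% interval 1.14 to 1.99, adjusted p = 0.0113 from limma), rank 39 of 10726 genes counted from the largest rise. HMOX1 was called in 13 of 13 other fits, including the 4 that each left out a library, with log2 fold changes from 1.43 to 1.70 and an adjusted p of at most 0.035 from limma. These fits reuse the same 4 libraries, and a crossed pairing among them was chosen after the data had been seen. Of the 20 nearest tested genes on chromosome 22, 3 had a positive log2 fold change, and their median was -0.20. In bulk libraries, more cells with HMOX1 mRNA and more of it per cell cannot be told apart.

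The same HMOX1 values were also set against the other members within each library, which is not independent evidence of its rise. HMOX1 stood at 10.1 and 11.5 percent of the FPKM of NQO1 in WT cells and at 30.0 and 28.9 percent in ZCCHC4 KO1 cells. Against SRXN1 it was at 20.3 and 24.5 percent in WT cells and at 59.2 and 54.6 percent in ZCCHC4 KO1 cells. Against GPX4, the member with the next largest log2 fold change, it was at 3.60 and 3.74 percent in WT cells and at 6.19 and 8.15 percent in ZCCHC4 KO1 cells. For each of the other 8 genes, both ZCCHC4 KO1 ratios exceeded both WT ratios. An exact two-sided permutation test of 2 against 2 libraries cannot give a p below 0.333, so these ratios carry no p. The 3 tested genes whose pattern over the 4 libraries lay closest to that of HMOX1, by the Euclidean distance of centred log2 values, were TNNC1 (0.10), PPL (0.10) and HS6ST1 (0.12), 4 points being few for such a ranking.

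Of 9 tested genes of a list of 10 for heme and iron handling, HMOX1 was called higher and 0 were called lower. Over all tested genes, 1.5 percent were called higher and 4.48 percent lower. The log2 fold change was positive in 7 of the 9, HMOX1 included, and negative in 2, with a median of 0.15. Over all tested genes it was positive in 5018 and negative in 5708. FTL, the ferritin light chain, was at 2554.43 and 3037.82 FPKM in WT cells and at 6370.18 and 4933.08 in ZCCHC4 KO1 cells, which did not pass (log2 fold change 1.01, SE 0.237, adjusted p = 0.0708 from limma). FTH1, the heavy chain, was at 5503.94 and 6123.90 in WT cells and at 10780.80 and 8968.83 in ZCCHC4 KO1 cells, which did not pass either (log2 fold change 0.76, SE 0.247, adjusted p = 0.142 from limma). Both chains, singled out after their values had been seen, were above WT in both ZCCHC4 KO1 libraries without passing the test, and passed it with the GC trend removed (adjusted p = 0.00142 and 0.00562 from limma). Ferritin has many near-identical pseudogenes, so its FPKM is uncertain. FECH, which makes heme, was at 14.39 and 16.35 in WT cells and at 7.04 and 8.79 in ZCCHC4 KO1 cells (adjusted p = 0.0589 from limma, and 0.0148 with the GC trend removed), and HMOX2, the constitutive heme oxygenase, at 40.01 and 42.88 and at 51.79 and 40.61. FECH and HMOX2 were also picked after their values had been seen. GC removal called 776 higher and 1342 lower of 10559 genes.

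**Figure D2:**
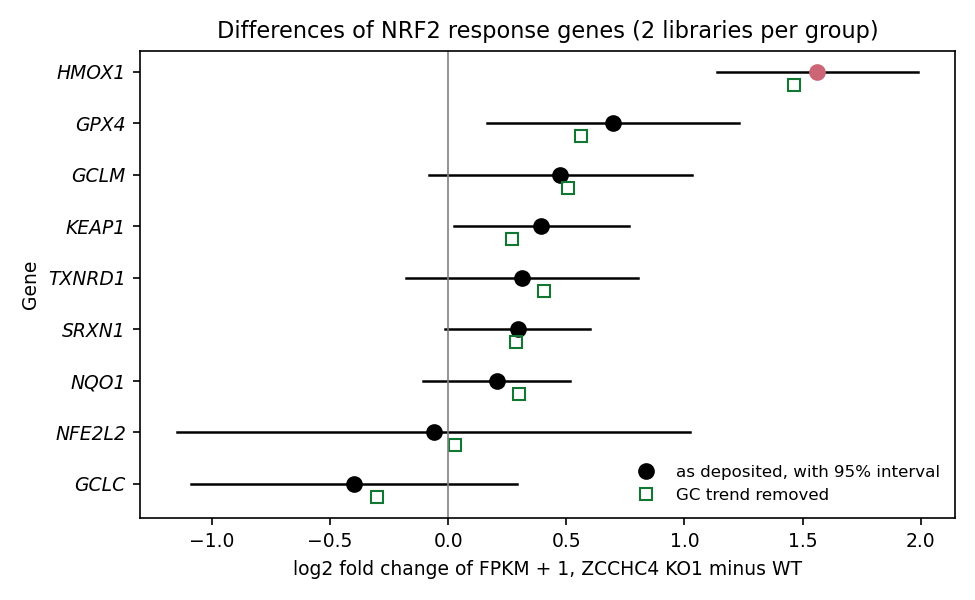
log2 fold change of FPKM + 1, ZCCHC4 KO1 minus WT, for each of the 9 genes, with bars for the 95% interval from limma; the red point has an adjusted p below 0.05 and open squares show the value with the GC trend removed. HMOX1 lies at 1.56, and the intervals of GPX4 (0.16 to 1.23) and KEAP1 (0.02 to 0.76) leave out 0 before adjustment only.

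NQO1 (chromosome 16, 69709401 to 69726560), a quinone reductase and a standard readout of NRF2 activity, was at 92.94 and 99.95 FPKM in WT cells and at 115.05 and 107.65 in ZCCHC4 KO1 cells. Both ZCCHC4 KO1 libraries were higher, by 15.5 percent on average. The log2 fold change was 0.21 (95% interval -0.11 to 0.52, adjusted p = 0.405 from limma), so a rise as large as that of HMOX1 lay outside the interval.

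Glutathione is made in a first, rate-limiting step by glutamate-cysteine ligase, whose catalytic subunit is GCLC and whose modifier subunit is GCLM. GCLC (chromosome 6, 53497341 to 53545101) was at 17.27 and 13.11 FPKM in WT cells and at 8.61 and 14.44 in ZCCHC4 KO1 cells, which overlapped (log2 fold change -0.40, 95% interval -1.09 to 0.29, adjusted p = 0.468 from limma). GCLM (chromosome 1, 93885199 to 93909430) was at 9.96 and 7.46 in WT cells and at 10.85 and 14.10 in ZCCHC4 KO1 cells, which did not overlap (log2 fold change 0.47, 95% interval -0.08 to 1.03, adjusted p = 0.285 from limma). The subunits thus had opposite signs, and neither difference passed the test. GCLM passed with the GC trend removed (log2 fold change 0.51, adjusted p = 0.0472 from limma). That setting called 776 higher and 1342 lower of 10559 genes. The value for GCLC shrank to -0.06 without ZCCHC4 KO1 replicate 1 and grew to -0.74 without replicate 2. It has 18 of its 20 nearest tested genes at a negative log2 fold change, with a median of -0.53.

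The thioredoxin branch reduces protein disulfides and peroxiredoxins. TXNRD1 (chromosome 12, 104215779 to 104350307), the cytosolic thioredoxin reductase and a selenoprotein, was at 154.89 and 132.18 FPKM in WT cells and at 150.01 and 211.04 in ZCCHC4 KO1 cells. The groups overlapped, and the log2 fold change of 0.31 (95% interval -0.18 to 0.80, adjusted p = 0.424 from limma) became 0.07 without ZCCHC4 KO1 replicate 2. SRXN1 (chromosome 20, 646615 to 653200), which repairs overoxidized peroxiredoxins, had the tightest replicates of the 9 genes, at 46.46 and 47.05 in WT cells and at 58.23 and 56.95 in ZCCHC4 KO1 cells. Its ZCCHC4 KO1 libraries were 23.2 percent higher on average. That difference exceeded the spread between its replicates but did not pass the test (log2 fold change 0.29, SE 0.125, 95% interval -0.01 to 0.60, adjusted p = 0.234 from limma).

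GPX4 (chromosome 19, 1103994 to 1106779), the selenoenzyme that reduces lipid hydroperoxides and restrains ferroptosis, was at 261.43 and 308.04 FPKM in WT cells and at 557.02 and 381.38 in ZCCHC4 KO1 cells. Both ZCCHC4 KO1 libraries were higher, but they differed from each other by more than the lower of them differed from WT replicate 2. The log2 fold change was 0.70 (SE 0.216, 95% interval 0.16 to 1.23, adjusted p = 0.129 from limma). The call depended on the processing: GPX4 passed with the GC trend removed (0.56, adjusted p = 0.00539 from limma) and with quantile normalization (0.68, adjusted p = 0.0151 from limma). Those settings called 776 and 466 of all tested genes higher, against 161 as deposited. Without ZCCHC4 KO1 replicate 2, the lower library of that group, the log2 fold change was 0.97. Over its 13 alternatives the highest adjusted p was 0.579 (limma, without WT replicate 1). GPX4 transcripts held 62.5 percent GC, and 17 of the 20 nearest tested genes had a positive log2 fold change, with a median of 0.30. The part of these in the value for GPX4 was not tested.

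**Figure D3:**
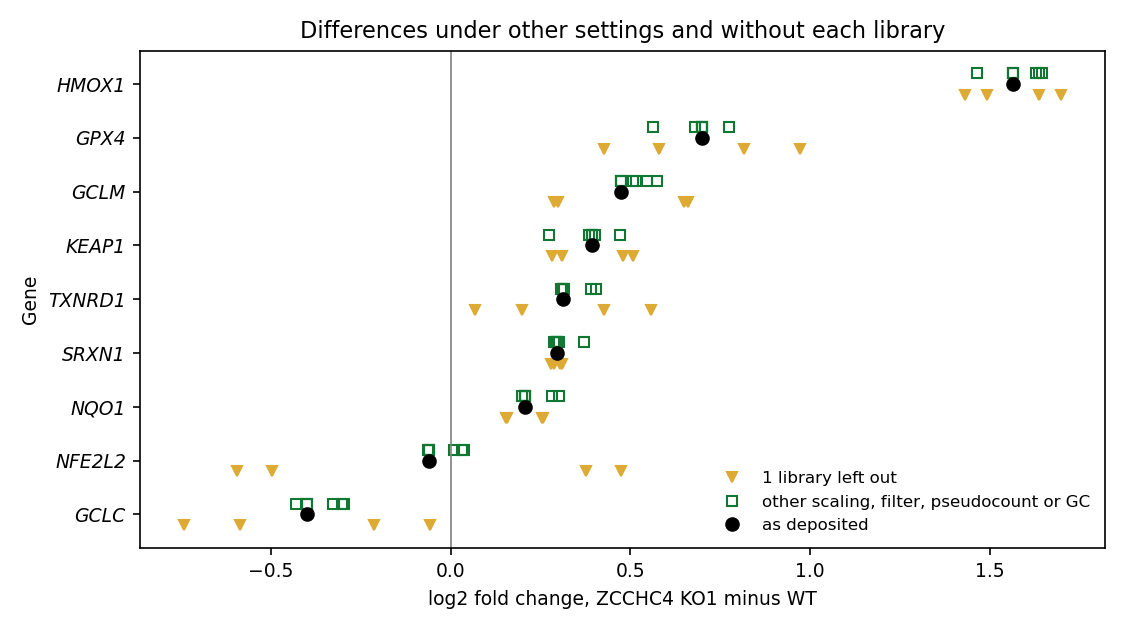
log2 fold change, ZCCHC4 KO1 minus WT, of each of the 9 genes as deposited (circles), under other scalings, filters, pseudocounts or GC removal (squares) and with each library left out in turn (triangles). HMOX1 stays between 1.43 and 1.70, whereas NFE2L2 runs from -0.59 to 0.47.

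Beyond the 9 members, 9 lists were drawn up for NRF2 regulators and for redox, iron, selenoprotein and ferroptosis functions. Their genes are called pathway genes here, though not all of them are NRF2 targets. The lists held 116 further genes, of which 105 were tested. Of these, 1 was called higher (0.952 percent, against 1.5 percent of all tested genes) and 7 lower (6.67 percent, against 4.48 percent), and 97 were not called. Their median log2 fold change was -0.09. Both ZCCHC4 KO1 libraries lay above WT for 23 of the 105 and below WT for 39, or 21.9 and 37.1 percent, beside 23.1 and 28.5 percent of all tested genes. The balance over all tested genes itself moved with the scaling, from 161 higher and 480 lower as deposited to 466 and 721 with quantile normalization and to 776 and 1342 with the GC trend removed.

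The list for quinone and carbonyl detoxification held 4 of the 7 lower genes and 0 called higher, with a median log2 fold change of -0.35 over 19 tested genes. Of all tested genes, 4.48 percent were called lower and 1.5 percent higher. CBR3, a carbonyl reductase, fell from 3.03 and 4.85 FPKM to 0.96 and 0.49 (log2 fold change -1.51, adjusted p = 0.0338 from limma, and -2.32 with a pseudocount of 0.1). PIR, the iron-binding protein pirin, fell from 28.02 and 28.12 to 10.21 and 12.54 (log2 fold change -1.24, adjusted p = 0.0178 from limma). AKR1C1, at 25.81 and 32.40 in WT cells and at 15.59 and 14.84 in ZCCHC4 KO1 cells, and AKR1C3, at 74.21 and 85.80 and at 46.60 and 48.67, are aldo-keto reductases that fell by 0.88 and 0.73 on the log2 scale (adjusted p = 0.0446 and 0.0409 from limma). CBR3, PIR, AKR1C1 and AKR1C3 are known NRF2 targets, as NQO1 is. Over all tested genes, both ZCCHC4 KO1 libraries lay below WT for 28.5 percent and above for 23.1 percent. Of the 19 tested genes of this list, 10 had both ZCCHC4 KO1 libraries below WT, 5 had both above and 4 overlapped. Those above were NQO1, AKR1C2, ABHD4, TRIM16 and TRIM16L, none of which passed the test. TRIM16L, at 57.30 and 68.39 FPKM in WT cells and at 106.29 and 95.57 in ZCCHC4 KO1 cells, had an adjusted p of 0.059 from limma, and TRIM16, at 35.67 and 40.18 and at 57.01 and 53.89, of 0.0846. With the GC trend removed, 2 genes of the list were called higher, TRIM16L and TRIM16 (adjusted p = 0.00215 and 0.0107 from limma), and 8 lower. That setting called 776 higher and 1342 lower of 10559 genes. TRIM16 and TRIM16L are close copies, so their reads could be divided differently, and both were picked after their values had been seen.

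Some of these calls are less certain than others. With no filter on low values, 1 of the 7 lower calls remained, that of PIR, and 0 higher calls. The AKR1C genes are near-identical, so reads could be divided differently among them, yet the FPKM of AKR1C1, AKR1C2 and AKR1C3 summed to 100.94 and 118.99 in WT cells and to 63.52 and 65.15 in ZCCHC4 KO1 cells. The calls of AKR1C1 and AKR1C3 were lost without WT replicate 1 (log2 fold change -1.04 and -0.84) or without WT replicate 2 (-0.73 and -0.63). Both calls were also lost with eBayes without a trend (adjusted p = 0.0567 and 0.0707 from limma) and with the replicate block (0.0964 and 0.119). That of AKR1C3 was lost under median-ratio scaling too (adjusted p = 0.0841 from limma). PIR lies on chromosome X, where 20 of its 20 nearest tested genes had a negative log2 fold change with a median of -0.65, and CBR3 on chromosome 21, where 19 of 20 were negative with a median of -0.56. AKR1C1 and AKR1C3 lie on chromosome 10, and each had 16 of 20 negative, with a median of -0.39. The part of these neighbourhoods in the values was not tested.

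Single genes of the remaining branches were called lower, as were 4.48 percent of all tested genes. GGT1, which breaks down extracellular glutathione, fell from 5.78 and 5.99 FPKM to 1.78 and 1.77 (log2 fold change -1.31, SE 0.185, adjusted p = 0.0195 from limma), 1 of 12 tested genes for glutathione synthesis and supply, whose median was -0.13. SOD1, the cytosolic superoxide dismutase, fell from 252.04 and 271.53 to 155.75 and 150.92 (log2 fold change -0.77, adjusted p = 0.0288 from limma), 1 of 12 tested genes for peroxide and superoxide removal, whose median was -0.26. GLRX, a glutaredoxin, fell from 7.77 and 8.56 to 3.38 and 3.43 (log2 fold change -1.06, adjusted p = 0.0354 from limma), 1 of 12 tested genes of the thioredoxin system, whose median was 0.01. SOD1 lost its call without WT replicate 1 (log2 fold change -0.82) or WT replicate 2 (-0.71). With all libraries kept, SOD1 also lost it under median-ratio scaling (adjusted p = 0.094 from limma), eBayes without a trend (0.0554) and the replicate block (0.103). GLRX lost its call without WT replicate 1 (log2 fold change -1.12), WT replicate 2 (-0.99) or ZCCHC4 KO1 replicate 1 (-1.05). The call of GLRX was also lost with the replicate block (adjusted p = 0.144 from limma). SOD1 lies on chromosome 21, where 18 of its 20 nearest tested genes had a negative log2 fold change, with a median of -0.47. GGT1, on chromosome 22, also had 18 of 20 negative, with a median of -0.28. GLRX, on chromosome 5, had 12 of 20 negative, with a median of -0.22. The part of these neighbourhoods in the values was not tested.

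Selenoproteins, among which GPX4 and TXNRD1 belong, and the factors that insert selenocysteine gave 0 calls among 22 tested genes, with 4 at an unadjusted p under 0.05 and a median log2 fold change of -0.07. Of 9 tested ferroptosis genes other than GPX4, 0 were called by limma, 2 had an unadjusted p under 0.05, and the median was -0.14. Over all 10726 tested genes, 5.98 percent were called and 2455 had an unadjusted p under 0.05. With the GC trend removed, 2 selenoprotein genes were called higher and 2 lower, and 2 and 0 ferroptosis genes. Over all 10559 genes under that setting, 776 were called higher and 1342 lower. UGT1A6, SOD3, SLC40A1 and ALOX5 were listed at 0 in both libraries of 1 group and at no more than 0.09 FPKM in the other, and were not tested.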

How the data were processed

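Per the supplement and labels, RNA from 4 untreated HepG2 libraries was sequenced (BGISEQ-500 in the supplement, an Illumina HiSeq instrument in the labels), aligned to GRCh38 with Bowtie2 and quantified with RSEM. The authors deposited FPKM values, 1 column per library. Versions, annotation and read filters are not given in the sources used here. Read depth is unknown, since FPKM carries no totals, so precision rests on 2 libraries per group. Nothing says that these came from separate cultures, so p-values measure only the spread between libraries, which may be technical. Symbols and positions came from RefSeq GRCh38.p14 for 16384 of 16658 genes, and GC content from the longest GENCODE v44 transcript.

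Genes with an FPKM of at least 1 in at least 2 libraries were fitted with limma 3.58.1 in R 4.3.3 as log2(FPKM + 1), with trended eBayes and p-values adjusted by Benjamini-Hochberg. The log2 scale with this pseudocount understates changes of low genes. The fit was tested on simulated data. The members, lists and tests were chosen with earlier results of these data known. Named genes are the members, ZCCHC4, up to 4 called genes with the smallest p of each list, list genes at 0 in both libraries of 1 group only, and the 3 genes closest in pattern to the called member with the smallest p. Outside this rule, BACH1, FTL, FTH1, FECH, HMOX2, TRIM16, TRIM16L, AKR1C2 and ABHD4 were named after their values were seen. Alternatives were other pseudocounts, filters, scalings and call rules, GC removal (natural spline, 4 degrees of freedom), eBayes without a trend, a replicate block and leaving out each library. GC removal also takes out any true difference that follows GC content. A pathway gene called higher, its list and a sequence match are counted in totals but not reported here.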

Additional observations from a re-analysis of the deposited data

How the results depend on the processing

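HMOX1 was called higher in every alternative fit, but not at the study's stricter thresholds, where 0 members, 0 higher and 0 lower pathway genes, and 2 higher and 6 lower genes of all tested were called. Against 1 higher and 0 lower members, 1 higher and 7 lower pathway genes, and 161 higher and 480 lower genes of all tested, quantile normalization gave 2 higher members, 7 and 14 pathway genes and 466 and 721 genes. GC removal gave 3 higher members, 10 and 26 pathway genes and 776 and 1342 genes. With no filter there were 0 and 1 pathway genes and 82 and 262 genes. Median-ratio scaling gave 2 higher pathway genes and 346 higher genes of all tested, a minimum FPKM of 5 gave 2 higher pathway genes, eBayes without a trend gave 4 lower pathway genes, and the 2-fold rule, which uses no test, gave 3 higher pathway genes. Leaving out 1 library gave 1 to 2 higher members, 1 to 10 higher and 3 to 15 lower pathway genes, and 97 to 558 higher and 273 to 1037 lower genes, with the highest counts without ZCCHC4 KO1 replicate 2. A group left with 1 library is assumed there to vary like the other group. For each of these counts the cause was not tested.

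The labels share only replicate numbers between the groups, and same-numbered libraries deviated in opposite directions (Pearson correlation -0.787 across genes). With the replicate block, 1 member was higher, 1 pathway gene was higher and 3 were lower, and 107 genes of all tested were higher. That fit took each gene's variance wholly from the trend over all genes, so its p-values do not measure a gene's own spread. With a crossed pairing, chosen after seeing the data, 6 members were higher and 1 lower, 19 pathway genes were higher and 38 lower, and 2309 and 2986 genes of all tested.

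The log2 fold change of NFE2L2 changed sign, to 0.0099 (median-ratio scaling), 0.038 (quantile normalization) and 0.031 (GC removal). With 1 library left out it ran from -0.59 to 0.47, positive without replicate 1 of either group, and the cause was not tested. Over 18 named genes, 190 of 233 alternative values kept their direction and side of the threshold, 28 lost the call, 10 gained it and 5 changed sign. The median log2 fold change of all tested genes moved from -0.03 to 0.04 under median-ratio scaling and quantile normalization.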
